A study of Mus musculus with 24 samples.

Results

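The rod photoreceptor genes described here are 32 genes whose products work in the light response, outer segment, retinoid handling and transcriptional identity of rods. They were chosen by symbol, for their known roles, but with earlier results of these data known. Shares of all genes set beside their counts are therefore descriptions. Their RNA was followed in the retinal pigment epithelium (RPE), the pigmented layer that adjoins the rods and takes up the discs they shed. All 32 were found among the 54232 gene identifiers of the count table, and all 32 passed the filter on low counts with 20275 genes in all. Mice were wild type (WT) or carried the genotype Per1-/-Per2Brdm1 (KO, used here for the libraries with that label), with C57BL/6/J x 129 SvEvBrd as the strain of both. All were males 6 weeks old, and the layer was taken by laser capture microdissection at circadian time (CT) 19, 22, 1 and 10, points that lie around the daily peak of outer segment uptake. Each of the 8 groups held 3 libraries, of which 5 in all were pooled from 2 eyes (4 KO, 1 WT, named by joined numbers such as 3and5). Whether each library came from its own animal is not stated, so the p-values reflect library-to-library spread, which may be technical.

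Rods detect light in a stack of membrane discs. Excited visual pigment activates the G protein transducin, transducin activates the phosphodiesterase PDE6, cyclic GMP falls and the cyclic nucleotide-gated channel closes. A kinase, arrestin and calcium-sensing proteins then end the response, and the transcription factors CRX, NRL and NR2E3 set the rod programme. Disc tips are shed each day and engulfed by the RPE, whose own transcriptome is known for visual cycle and pigment genes.

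Both kinds of gene were abundant in every library. The RPE genes Ttr, Rpe65 and Rlbp1 lay at 13780 to 31370, 2809 to 7229 and 1549 to 4689 CPM (counts per 1000000 counts of a library, after scaling), and the rod transducin gene Gnat1 lay at 6072 to 35970 CPM. Total counts per library ran from 16245067 to 32066263. Of the targeted genes, at CT19, Per1 averaged 45.9 ± 5.85 CPM in WT and 141.6 ± 35.6 CPM in KO (mean ± SD, n = 3), and Per2 25.4 ± 4.81 and 106 ± 26.9 CPM. Both were higher in KO at CT22 and CT1 as well, and not at CT10. Counts over whole genes therefore do not settle the genotype labels, and every direction between genotypes rests on the labels as given. In captured tissue, fewer rod fragments and less RNA per rod cannot be told apart.

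Promoter letters were read for the members as a description, and any link to how their levels moved between libraries was not tested. RefSeq windows of 300 bases (250 before and 50 after the gene start, build GRCm38.p6) were found for 23 of the 32 genes. The core letters of CRX, a homeobox factor of photoreceptors (TAATCC, searched on both strands), occurred in 10 of the 23 windows (43.5%), against 8.1% of 27025 genes. The letters TGCTGAC, a form of the NRL element searched the same way, occurred in 1 window, that of Pde6b (4.3% against 5.3% of all genes). The E-box CACGTG, the element of clock activators, occurred in 0 of 23 (8.1% of all genes). The windows printed are those of Sag with 1 match, Crx and Cngb1 with 2 each, and Fscn2, the member that differed between genotypes beyond the rest, with none. Capitals mark the CRX letters, in either orientation (GGATTA where they lie on the other strand), and each sequence runs 5′ to 3′ on the strand of its gene.

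Sag, chr1:87803430-87803729, plus strand: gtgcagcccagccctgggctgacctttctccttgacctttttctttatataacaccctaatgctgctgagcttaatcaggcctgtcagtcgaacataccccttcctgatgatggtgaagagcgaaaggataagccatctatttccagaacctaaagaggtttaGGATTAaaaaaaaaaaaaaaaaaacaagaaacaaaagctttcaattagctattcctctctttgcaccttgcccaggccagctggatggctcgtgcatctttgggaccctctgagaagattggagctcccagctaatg
Crx, chr7:15879906-15880205, minus strand: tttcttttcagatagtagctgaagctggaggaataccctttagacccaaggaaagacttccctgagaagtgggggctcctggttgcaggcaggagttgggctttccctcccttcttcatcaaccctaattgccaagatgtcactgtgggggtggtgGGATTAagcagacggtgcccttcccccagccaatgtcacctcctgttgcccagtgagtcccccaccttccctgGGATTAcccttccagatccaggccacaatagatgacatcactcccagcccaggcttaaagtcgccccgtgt
Cngb1, chr8:95306536-95306835, minus strand: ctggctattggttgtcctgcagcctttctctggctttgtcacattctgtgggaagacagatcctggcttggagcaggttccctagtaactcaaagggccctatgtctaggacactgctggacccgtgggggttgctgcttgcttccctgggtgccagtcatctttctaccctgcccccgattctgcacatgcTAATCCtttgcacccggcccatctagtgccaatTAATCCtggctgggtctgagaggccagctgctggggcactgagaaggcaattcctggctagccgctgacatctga
Fscn2, chr11:120361284-120361583, plus strand: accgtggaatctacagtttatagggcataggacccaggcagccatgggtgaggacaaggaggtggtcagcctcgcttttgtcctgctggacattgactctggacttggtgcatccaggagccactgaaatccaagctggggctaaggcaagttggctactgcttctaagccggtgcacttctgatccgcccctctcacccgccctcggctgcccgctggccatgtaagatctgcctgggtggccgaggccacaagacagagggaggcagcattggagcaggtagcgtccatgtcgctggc

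The Sag match began 87 bases before the gene start, and those of Crx at 94 and 21 bases and of Cngb1 at 58 and 25 bases before it. A match describes these letters only, and binding was not measured in these libraries.

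Together the 32 genes took between 1.93% and 9.31% of all counts in a library. In WT they took 6.15%, 3.30% and 2.96% at CT19, 2.38%, 4.29% and 1.93% at CT22, 6.93%, 6.35% and 5.80% at CT1, and 2.87%, 3.64% and 4.35% at CT10. In KO they took 4.35%, 8.44% and 4.86% at CT19, 5.10%, 9.31% and 3.04% at CT22, 3.22%, 2.63% and 3.28% at CT1, and 3.37%, 4.36% and 5.30% at CT10. The 3 WT libraries of CT1 were all high and the 3 KO libraries of CT1 all low. At CT19 and at CT22, in both genotypes, 1 library lay far above the others of its group. Of these, KO CT19 3and5, KO CT22 2 and WT CT19 1 had all 32 genes above their own median over the 24 libraries, and WT CT22 3 had 18. All 3 WT CT1 libraries also had all 32 above it. In WT CT22 1, WT CT22 6 and KO CT1 1, none of the 32 genes was above its median.

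**Figure D1:**
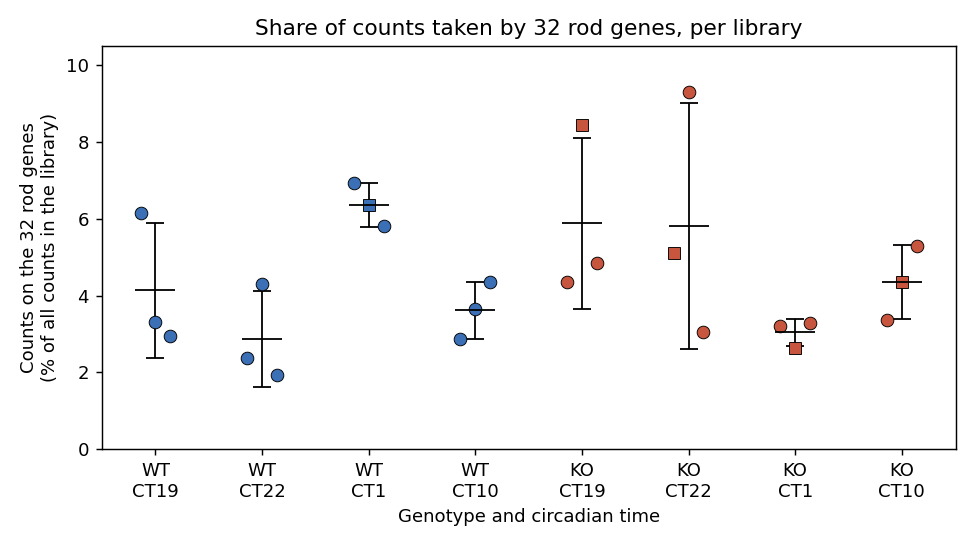
Share of each library's counts (vertical axis, %) that fell on the 32 rod genes, by genotype and circadian time (horizontal axis). Points are libraries (squares pooled from 2 eyes), bars the group mean and whiskers the SD. WT CT1 lies at 5.80% to 6.93% and KO CT1 at 2.63% to 3.28%, while KO CT22 spans 3.04% to 9.31%.

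Levels differed widely between the genes. As median CPM per kilobase of exon, Gnat1 was first at 4869, followed by Rcvrn at 1282, Pde6g at 845 and Pdc at 603.7, and the guanylate cyclase gene Gucy2f was last at 5.94. Between the highest and lowest library, Sag varied 14.5-fold, Fscn2 10.3-fold and Rdh12 9.80-fold. The narrowest ranges were those of the exchanger gene Slc24a1 (2.21-fold) and the retinoid transporter gene Abca4 (2.25-fold). The map of the 32 genes over the 24 libraries shows most rows rising and falling in the same columns.

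**Figure D2:**
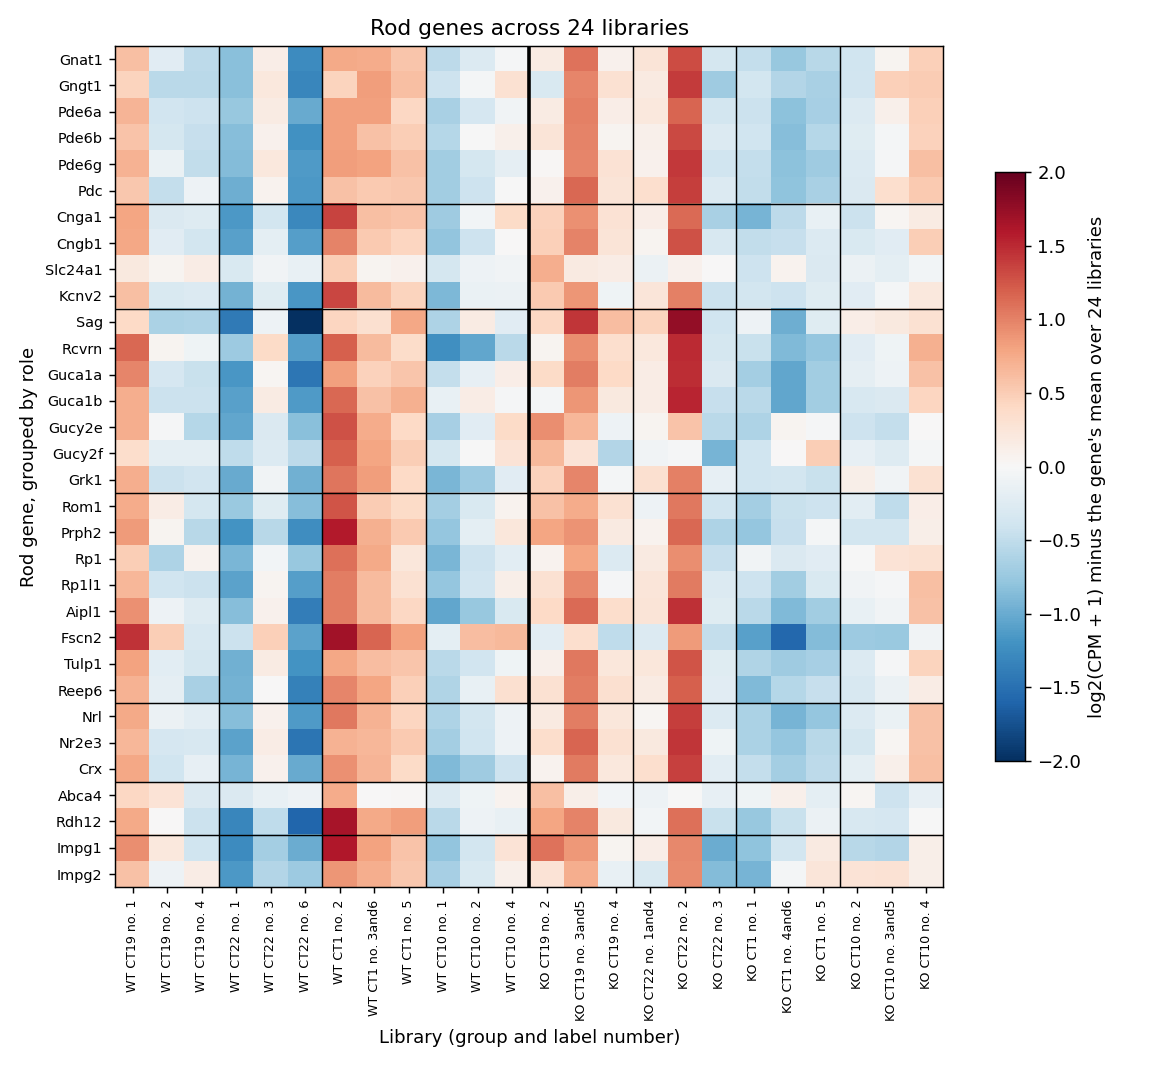
Level of each rod gene (rows, grouped by role) in each library (columns, WT left and KO right of the thick line), as log2(CPM + 1) minus the gene's mean over 24 libraries (colour). The WT CT1 columns, WT CT19 1, KO CT19 3and5 and KO CT22 2 are high over nearly all rows, and the rows of Slc24a1 and Abca4 are pale.

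The comparison in which the rod genes passed the test was the change from CT22 to CT1 between genotypes. In WT the genes were higher at CT1 than at CT22 (median log2 difference 1.30, 32 of 32 positive), and in KO they lay lower (median -1.09, 30 of 32 negative, with Gucy2f at 0.38 and Abca4 at 0.03). The difference between the 2 changes passed in 29 of 32 genes, all lower in KO, at a Benjamini-Hochberg adjusted p under 0.05 in edgeR's quasi-likelihood test (5.92% of all genes tested passed in that direction). Its median over the 32 genes was log2 -2.40, against -0.04 over all genes tested. The calls depended on single libraries. Without KO CT22 2, the library richest in these genes, 1 gene (Rdh12) passed, and the median was log2 -1.83, while the share of all genes called fell from 7.53% to 0.267%. Without WT CT22 1 there were 12 calls and without WT CT1 2 there were 17. All 32 values were negative in each of the 24 fits that left out 1 library. These are not 32 separate results, because the members varied together between libraries and the fits share most libraries.

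**Figure D3:**
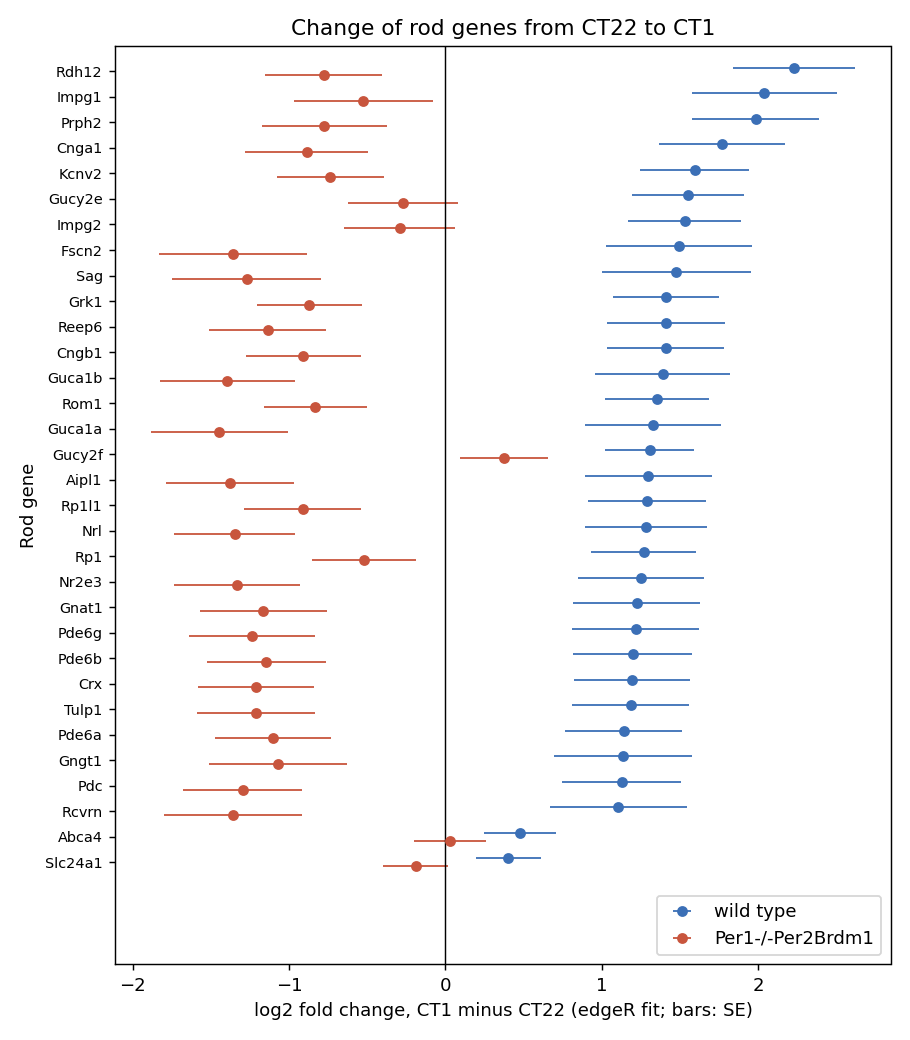
Fitted log2 fold change from CT22 to CT1 (horizontal axis; bars are SE) for each of the 32 rod genes (vertical axis) in WT (blue) and KO (red), 3 libraries per group and time. Blue points all lie right of 0, from 0.40 to 2.23, and 30 of the 32 red points lie left of it.

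Within one genotype or at one time, 0 to 4 members passed with TMM factors and the filter on low counts. From CT22 to CT1 in WT, 4 genes rose (0.261% of all genes tested rose). They were Rdh12, a retinol dehydrogenase, by log2 2.23, Prph2 by 1.98, Kcnv2, a potassium channel modulator, by 1.59 and Gucy2f by 1.31. That count was 28 with limma voom, 30 without a filter and 26 with the choroid list as a covariate. The share of all genes called in those fits is not given here. In other settings the count fell. It was 1 with RLE factors, and 0 with the replicate number as a block, with scaling to RPE genes or without the pooled libraries. With 1 library left out it was 0 for 14 of the 24 libraries, and it was highest without KO CT22 2 (14) and KO CT22 3 (10). For 31 of the 32 genes no WT CT22 library reached a WT CT1 library (11.7% of all genes were separated in that direction), the exception being Rcvrn. In KO, 0 members and 0% of all genes tested passed between these times by edgeR, where 23 members and 16.7% of all genes had an unadjusted p under 0.05. DESeq2 called 0 members and 1.93% of all genes. Even so, 18 members had every KO CT1 library below every KO CT22 library (9.90% of all genes).

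Between genotypes at CT1, 1 member was lower in KO past the threshold (0.311% of all genes tested fell), Fscn2. There were 0 calls without KO CT1 1, KO CT1 4and6, KO CT1 5, KO CT10 3and5, WT CT1 2, WT CT1 3and6 or WT CT10 2, 21 without KO CT22 2 and 4 without KO CT22 3. DESeq2 gave 14, voom 15 and the fit without a filter 29. These counts are given without the share of all genes called in each fit, so they describe the settings only. The count was 0 with the replicate number as a block, with scaling to RPE genes or without the pooled libraries. The median over the 32 genes was log2 -1.28, all were negative, and in 30 of them each KO library lay below each WT library (14.6% of all genes), with Abca4 and Slc24a1 the exceptions. At CT22 the median was log2 1.10 and all were positive, but 0 passed (0.178% of all genes tested rose), and in 1 gene, Rdh12, the libraries were separated (8.01% of all genes). Unadjusted p under 0.05 were seen for 28 members at CT22 (12.7% of all genes) and 29 at CT1 (19.5%).

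All 6 transduction genes passed as lower in KO in the change from CT22 to CT1 between genotypes (5.92% of all genes tested). Of all 32 members, only Rdh12 passed without KO CT22 2. With the replicate number as a block or with scaling to RPE genes, 0 passed. Gnat1, the rod transducin alpha subunit, was at 8121, 15915 and 6072 CPM in the WT CT22 libraries and 24635, 24396 and 21287 CPM at CT1. Gnat1 in KO was at 17415, 35970 and 11339 CPM at CT22 and 10395, 8596 and 9875 CPM at CT1. The WT CT1 libraries thus lay above all WT CT22 and all KO CT1 libraries. At the other times Gnat1 was at 22030, 12367 and 10121 CPM (WT CT19), 10067, 12041 and 14384 CPM (WT CT10), 16360, 30757 and 15455 CPM (KO CT19) and 11072, 15110 and 20304 CPM (KO CT10), where the genotypes overlapped. Its change from CT22 to CT1 was log2 -2.39 lower in KO (SE 0.57; edgeR adjusted p 0.0153, quasi-likelihood, Benjamini-Hochberg).

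Pde6b, a catalytic subunit of the rod phosphodiesterase, was at 716, 1372 and 558 CPM in WT at CT22 and 2292, 1955 and 1826 CPM at CT1. KO libraries held 1384, 3250.1 and 1069 CPM at CT22 and 980.3, 720.5 and 876 CPM at CT1. The order of the libraries was that of Gnat1. At CT19 it was at 1920.4, 1011 and 939 CPM in WT and 1548, 2582 and 1339.8 CPM in KO, and at CT10 at 872, 1284 and 1384 and 1096, 1267 and 1776 CPM. The difference in change was log2 -2.35 (SE 0.54; edgeR adjusted p 0.0131, quasi-likelihood, Benjamini-Hochberg). The other subunit genes of transducin and phosphodiesterase, Gngt1, Pde6a and Pde6g, and Pdc, which binds transducin beta-gamma, fell between log2 -2.21 and -2.45 in the same contrast. Pde6a averaged 1921 ± 866 CPM in WT at CT22 and 4238 ± 644 at CT1, against 3635 ± 2002 and 1691 ± 232 in KO. Pde6g averaged 1485 ± 784 and 3450 ± 298 CPM in WT and 3075 ± 2112 and 1304 ± 161 in KO. For Gngt1 the means were 852 ± 482 and 1874 ± 256 CPM in WT and 1753 ± 1264 and 833 ± 89.8 in KO. The wide KO CT22 errors are those of a group with 1 high library. Pdc, at 1320 ± 659 and 2887 ± 52.9 CPM in WT and 3090 ± 1843 and 1257 ± 137 in KO, overlaps a gene on the opposite strand, and whether strand was used in counting is unknown here.

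Among the channel genes, Cnga1, the alpha subunit of the rod channel, was at 118.7, 204 and 107 CPM in WT at CT22 and 673, 400.3 and 392 CPM at CT1. The KO values were 289.6, 576 and 168 CPM at CT22 and 138, 182 and 238 CPM at CT1. WT CT1 was again above WT CT22 and KO CT1 without overlap, whereas the KO groups overlapped. At CT19 the WT libraries were at 454, 215 and 221 CPM and the KO libraries at 363, 496 and 321 CPM, and at CT10 at 160.1, 253 and 344 and 194, 270 and 294 CPM. Its change was log2 -2.66 lower in KO (SE 0.56; edgeR adjusted p 0.0106, quasi-likelihood, Benjamini-Hochberg). The beta subunit gene Cngb1 (log2 -2.32) and Kcnv2 (log2 -2.33) passed as well. Cngb1 averaged 288 ± 112.3 and 765 ± 168 CPM in WT and 681 ± 418 and 362 ± 30.4 in KO, and Kcnv2 99.1 ± 35.2 and 299 ± 103 against 218 ± 108 and 130.4 ± 8.12. Slc24a1, the rod sodium, calcium and potassium exchanger, did not pass (log2 -0.59, SE 0.29; edgeR adjusted p 0.216, quasi-likelihood, Benjamini-Hochberg). Its group means stayed between 1372 ± 253 CPM (KO CT1) and 2046 ± 482 CPM (KO CT19).

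Of the genes that end the response or sense calcium, Sag, the rod arrestin, was at 1152, 2868 and 719.7 CPM in WT at CT22 and 4126, 3849.6 and 5219.8 CPM at CT1. Sag in KO stood at 4162, 10404 and 2334 CPM at CT22 and 2854, 1556 and 2586 CPM at CT1. KO CT22 2 held the highest Sag value of all libraries and WT CT22 6 the lowest. At CT19 the 3 KO libraries (4088, 8304 and 4716 CPM) lay above the 3 WT libraries (4051, 1977 and 2008 CPM), as in no other member (3.96% of all genes). At CT10 Sag was at 2004, 3450.2 and 2625 CPM in WT and 3354, 3519 and 3798 CPM in KO. The change differed by log2 -2.75 (SE 0.67; edgeR adjusted p 0.018, quasi-likelihood, Benjamini-Hochberg).

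Grk1, the kinase that phosphorylates excited visual pigment, was at 466, 887 and 480.3 CPM in WT at CT22 and 1975, 1678 and 1230.5 CPM at CT1. KO libraries held 1164, 1878 and 831 CPM at CT22 and 711, 723 and 684 CPM at CT1. All 3 KO libraries fell in a narrow band at CT1. At CT19 it was at 1554, 695 and 717 CPM in WT and 1292, 1834 and 908 in KO, and at CT10 at 494, 564 and 798 and 1011, 896 and 1159 CPM, where each KO library was above each WT library. The change differed by log2 -2.28 (SE 0.48; edgeR adjusted p 0.0106, quasi-likelihood, Benjamini-Hochberg). Recoverin (Rcvrn), the calcium sensor of Grk1, passed at log2 -2.47, and the cyclase activators Guca1a and Guca1b at -2.77 and -2.79. Rcvrn averaged 1068 ± 605 and 2301 ± 696 CPM in WT and 2142 ± 1470 and 834 ± 133.3 in KO, and it overlaps a gene on the opposite strand. Guca1a averaged 227 ± 134.7 and 569 ± 73.8 CPM in WT and 583 ± 394 and 214 ± 29.2 in KO. For Guca1b the means were 419 ± 232, 1098 ± 235, 964 ± 705 and 366 ± 62.8 CPM in the same order. Of the guanylate cyclases that restore cyclic GMP, Gucy2e passed (log2 -1.82) and Gucy2f did not (log2 -0.93; edgeR adjusted p 0.15, quasi-likelihood, Benjamini-Hochberg). Gucy2e averaged 87.8 ± 24.8 and 257 ± 80.7 CPM in WT and 152 ± 57.2 and 126.3 ± 29.5 in KO, and Gucy2f 37.0 ± 3.58 and 91.6 ± 22.8 against 40.9 ± 13.1 and 53.1 ± 16.5.

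All 8 genes of discs, cilium and protein trafficking passed in this contrast (5.92% of all genes tested). Prph2, which shapes the disc rim, was at 461, 717 and 446 CPM in WT at CT22 and 3167, 1738 and 1515 CPM at CT1. The KO values were 1114, 2336 and 689 CPM at CT22 and 622, 772 and 1028 CPM at CT1. WT CT1 2 held the highest value of all libraries. At CT19 Prph2 was at 1908, 1103 and 724 CPM in WT and 1826, 1968 and 1203 in KO, and at CT10 at 617, 922 and 1242 and 822, 817 and 1154 CPM, overlapping at both times. The change differed by log2 -2.76 (SE 0.57; edgeR adjusted p 0.0106, quasi-likelihood, Benjamini-Hochberg).

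Rp1, a microtubule protein of the photoreceptor cilium, was at 209.7, 381 and 234 CPM in WT at CT22 and 849, 674 and 464 CPM at CT1. Rp1 in KO stood at 451, 760.3 and 287 CPM at CT22 and 378, 325 and 341 CPM at CT1. Of the genes of this role it had the smallest difference, log2 -1.79 (SE 0.47; edgeR adjusted p 0.0244, quasi-likelihood, Benjamini-Hochberg). At CT19 Rp1 was at 559, 259 and 418 CPM in WT and 416, 689.5 and 328 in KO, and at CT10 at 211, 299 and 345 and 393, 479.7 and 492 CPM, with each KO library above each WT library at CT10. Rom1, a disc rim partner of Prph2 (log2 -2.19), Rp1l1, a relative of Rp1 (-2.20), and Tulp1, a trafficking factor (-2.40), also passed. So did Reep6, a rod endoplasmic reticulum protein (-2.55), and Aipl1, a chaperone for PDE6 (-2.68). Rom1 averaged 524 ± 124.2 and 1340 ± 474 CPM in WT and 988 ± 565 and 555 ± 54.6 in KO. Aipl1 averaged 374 ± 199.5 and 919 ± 199 CPM in WT and 899 ± 575 and 346 ± 41.3 in KO. Tulp1 averaged 748 ± 407 and 1701 ± 130.5 CPM against 1588 ± 879 and 686 ± 28.3. In each of these the KO mean lay above the WT mean at CT22 and below it at CT1. The same order held for Rp1l1 (207 ± 103 and 504 ± 125.3 CPM in WT, 425 ± 198 and 226 ± 30.7 in KO) and Reep6 (542 ± 276, 1443 ± 243, 1210 ± 652 and 549.9 ± 81.3 CPM).

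The 3 transcription factor genes moved with their set. Nrl, the leucine zipper factor of rod fate, was at 786, 1521 and 648 CPM in WT at CT22 and 2975, 2305 and 1914 CPM at CT1. KO libraries held 1467, 3707 and 1175 CPM at CT22 and 916, 745 and 831 CPM at CT1. Its change differed by log2 -2.63 (SE 0.55; edgeR adjusted p 0.0106, quasi-likelihood, Benjamini-Hochberg), and the WT and KO libraries of CT1 did not overlap. At CT19 Nrl was at 2408, 1313 and 1228 CPM in WT and 1618, 2914 and 1674 in KO, and at CT10 at 925, 1104 and 1323 and 1182, 1298 and 2132 CPM.

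Nr2e3, a nuclear receptor that represses cone genes in rods, was at 149, 351 and 113.9 CPM in WT at CT22 and 513, 497 and 452 CPM at CT1. The KO values were 362, 851 and 297 CPM at CT22 and 202, 183 and 213 CPM at CT1. At CT19 it was at 497, 250.4 and 252 CPM in WT and 400.5, 705 and 389.6 in KO, and at CT10 at 195, 239 and 293 and 248, 325 and 472 CPM. Both CT1 groups were narrow and far apart, and the change differed by log2 -2.59 (SE 0.57; edgeR adjusted p 0.0118, quasi-likelihood, Benjamini-Hochberg).

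Crx, whose promoter holds its own factor's letters at 2 positions, was at 379, 767 and 358 CPM in WT at CT22 and 1356, 1151 and 937 CPM at CT1. Crx in KO stood at 912, 1855 and 625 CPM at CT22 and 515, 450.3 and 499 CPM at CT1. At CT10 each KO library (632, 773 and 1099 CPM) lay above each WT library (391, 439.6 and 541 CPM), and at CT19 WT was at 1234, 546 and 646 and KO at 761, 1485 and 837 CPM. The change differed by log2 -2.41 (SE 0.53; edgeR adjusted p 0.0109, quasi-likelihood, Benjamini-Hochberg).

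The 2 retinoid genes differed from each other. Abca4, the disc membrane transporter that clears retinal, was at 652, 712 and 742 CPM in WT at CT22 and 1327, 796 and 805 CPM at CT1, and in KO at 742, 788 and 709 and at 748, 849.9 and 688 CPM. Apart from WT CT1 2 these libraries lay close together, and the change did not pass (log2 -0.45, SE 0.33; edgeR adjusted p 0.429, quasi-likelihood, Benjamini-Hochberg). At CT19 Abca4 was at 1055, 954 and 647 CPM in WT and 1203, 858 and 762 in KO, and at CT10 at 659, 743 and 831 and 812, 591 and 703 CPM. Rdh12, which reduces retinal in the inner segment, had the largest difference of the 32 genes, log2 -3.01 (SE 0.54; edgeR adjusted p 0.00779, quasi-likelihood, Benjamini-Hochberg). It averaged 32.8 ± 13.7 and 154 ± 57.5 CPM in WT at CT22 and CT1, and 89.0 ± 52.9 and 51.9 ± 11.7 CPM in KO.

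Both genes of the interphotoreceptor matrix, the material between rods and RPE, passed (5.92% of all genes tested). Impg1 was at 39.4, 59.4 and 47.3 CPM in WT at CT22 and 292, 168 and 142 CPM at CT1, and in KO at 105, 187 and 47.4 and at 54.5, 73.4 and 108 CPM. The WT groups were far apart and the KO groups overlapped. At CT19 Impg1 was at 182, 110.3 and 71.9 CPM in WT and 204, 176 and 99.4 in KO, and at CT10 at 54.6, 73.8 and 115.9 and 64.9, 63.1 and 104 CPM. Its change differed by log2 -2.57 (SE 0.64; edgeR adjusted p 0.0227, quasi-likelihood, Benjamini-Hochberg) and that of Impg2 by -1.82, from means of 51.5 ± 10.2 and 149 ± 17.6 CPM in WT and 98.7 ± 66.5 and 80.6 ± 30.9 in KO.

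Over all 4 times, 20 of the 32 genes passed the genotype by time interaction (4.62% of all genes tested), with a median log2 range of 2.40 between the highest and lowest genotype difference. Leaving out 1 library moved this count between 0 and 28. It was 0 without KO CT1 1, KO CT1 4and6, KO CT1 5, KO CT10 2, KO CT10 4, WT CT1 2, WT CT1 3and6, WT CT10 1 or WT CT22 1. It was 1 to 13 without KO CT10 3and5, KO CT19 3and5, KO CT19 4, KO CT22 2, WT CT1 5, WT CT10 2, WT CT10 4, WT CT19 2, WT CT19 4 or WT CT22 6, and 14 to 28 without each of the other 5. Any difference over the times passed in WT for 3 members (Prph2, Rdh12 and Grk1, 0.947% of all genes; 0 to 14 members with 1 library left out) and in KO for 0 (0% of all genes; 21 members and 11.7% of all genes had an unadjusted p under 0.05, and DESeq2 called 1 member). Averaged over the times, genotype gave 0 calls by edgeR (0.375% of all genes tested, 2 members and 7.07% of all genes with an unadjusted p under 0.05, 1 member called by DESeq2). The median log2 difference was 0.15. At CT19 the median was log2 0.41 and at CT10 0.34. Neither time gave a member past the threshold in edgeR or DESeq2 (0.0691% and 0.0345% of all genes by edgeR). At an unadjusted p under 0.05 there were 1 member at CT19 (3.47% of all genes) and 3 at CT10 (17.9%). At CT10, 6 members (Rcvrn, Crx, Rp1, Grk1, Aipl1 and Impg2) had each KO library above each WT library, a share close to the 17.7% of all genes.

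The members varied together from library to library. Across the 24 libraries, log2(CPM + 1) of Gnat1 correlated with that of the other 31 genes at Pearson r of 0.399 (Abca4) to 0.989 (Pde6a and Tulp1), with a median of 0.926 and r over 0.9 for 20 genes. By permutation test with 100000 resamples, 30 of the 31 relations had an adjusted p under 0.05 by Pearson's r and 31 by Spearman's rho. The smallest p these resamples can give is 1e-05. For Pde6a, r was 0.989 and rho 0.989 (permutation p 1e-05, adjusted 1.19e-05 and 1.24e-05), and r was 0.989 again without KO CT22 2 and WT CT22 6, the 2 libraries farthest from the median of Gnat1. On deviations from the 8 group means 29 relations passed, with a median r of 0.934, and those of Abca4 (0.189) and Slc24a1 (0.082) did not. Within WT all 31 passed and within KO 28, where Abca4 (0.13), Slc24a1 (0.353) and Gucy2f (0.209) did not. How many of all genes would pass against Gnat1 was not computed, so these counts do not set the members apart from other genes. Outside the lists named here, the genes whose level over 24 libraries was most like the mean of the 32 genes were Rtbdn (r 0.983), Pitpnm1 (0.978), Fam3c (0.977), Ndrg3 (0.974), Mpp4 (0.973), Fam57b (0.971), Susd3 (0.970), Herc3 (0.969), Alpl (0.969) and Epb41l2 (0.967), out of 11448 genes with a mean of at least 5 CPM. This is a description, without a test.

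Fscn2, a photoreceptor actin-bundling protein, was the member that differed between genotypes apart from the rest. It lies at chr11:120361534-120368168 on the plus strand, and no annotated gene overlaps it. The WT libraries held 94.8, 48.7 and 27.2 CPM at CT19, 25.1, 47.7 and 15.8 at CT22, 111.5, 77.9 and 60.7 at CT1 and 29.6, 53.1 and 53.9 at CT10. The KO libraries held 29.3, 43.3 and 23.8, 28.1, 62.3 and 24.3, 15.6, 10.8 and 18.3 and 20.2, 20.1 and 32.6 CPM at these times. The genotypes were apart at CT1 and overlapped at CT19, CT22 and CT10. At CT1 Fscn2 was log2 -2.48 lower in KO (SE 0.49; edgeR adjusted p 0.0253, quasi-likelihood, Benjamini-Hochberg), and its change from CT22 to CT1 differed by log2 -2.86 (SE 0.66, adjusted p 0.0168 by the same test).

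Set against Gnat1 in the same library, the difference was present at every time. Per 1000 CPM of Gnat1, Fscn2 was at 2.60 to 4.52 CPM in the 12 WT libraries (median 3.14) and at 1.26 to 2.15 CPM in the 12 KO libraries (median 1.61), with no overlap. By time the ratio averaged 3.64 ± 0.846 in WT and 1.58 ± 0.197 in KO at CT19, 2.90 ± 0.261 and 1.83 ± 0.278 at CT22, 3.52 ± 0.884 and 1.53 ± 0.301 at CT1, and 3.70 ± 0.740 and 1.59 ± 0.249 at CT10 (mean ± SD, n = 3). The mean log2 ratio was -1.06 lower in KO (exact permutation test, two-sided, genotype labels exchanged within each time, p 1.25e-05, the smallest that 160000 relabellings allow, adjusted p 0.000388 over 31 members). Without each library in turn it stayed between -1.11 and -1.01. Among 20274 genes taken per Gnat1, 3 (0.0148%), Fscn2 included, had every KO library below every WT library. This ratio was examined after the values of Fscn2 were known.

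**Figure D4:**
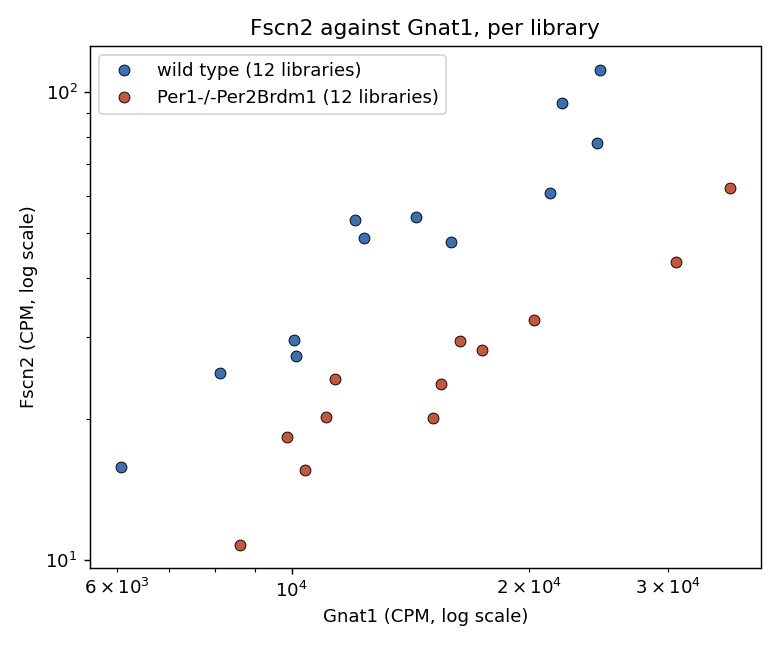
Fscn2 (vertical axis, CPM, log scale) against Gnat1 (horizontal axis, CPM, log scale) in the 12 WT and 12 KO libraries, 1 point each. Fscn2 follows Gnat1 within each genotype (r of 0.953 in WT and 0.946 in KO on log2 values), and the KO points lie below the WT points at any level of Gnat1.

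With the mean of the 32 genes as a covariate in the edgeR fit, chosen after seeing the data and built partly from the gene tested, Fscn2 was log2 -1.05 lower in KO over the times (SE 0.09; adjusted p 6.19e-08, quasi-likelihood, Benjamini-Hochberg). Without the covariate the value was -0.96 and did not pass (adjusted p 0.108, and 2.41e-16 to 0.654 over the alternatives). The phosphodiesterase gene Pde6g, 79.4 kb downstream of Fscn2, did not pass per Gnat1 (log2 -0.03, exact permutation p 0.527). Fscn2 and Per1 are 51.25 Mb apart on chromosome 11.

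Sag was the other member past the threshold per Gnat1, in the opposite direction, with a log2 ratio 0.45 higher in KO (exact permutation p 0.00245, adjusted p 0.038). Its ratios overlapped, from 118.5 to 286.5 CPM per 1000 CPM of Gnat1 in WT and 181 to 305 in KO. Leaving out 1 library raised its adjusted p past 0.05 in 16 of 24 cases (up to 0.101, without KO CT10 2). Sag lies 3.57 Mb from Per2 on chromosome 1. Close to Per1 lie Gucy2e (0.11 Mb), Rcvrn (1.39 Mb) and Aipl1 (2.92 Mb), none of which passed per Gnat1 (log2 -0.13, 0.01 and 0.12). Whether position near the altered genes bears on any of these values was not tested. The remaining 29 members gave adjusted p of 0.0896 (Nr2e3) to 0.928 in the exact permutation tests, with log2 ratios of -0.33 (Gucy2f) to 0.13 (Grk1).

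Other photoreceptor genes outside the 32 moved the same way. Of 25 further genes that rods and cones use, 23 were lower in KO in the change from CT22 to CT1 (median log2 -2.14, against 5.92% of all genes tested). This list, too, was chosen with earlier results of these data known. Without KO CT22 2 there was 1 call, without WT CT22 1 or without WT CT1 2 there were 9, and in each of these fits all 25 values were negative. Gnb1, the transducin beta subunit, averaged 4035 and 8927 CPM in WT and 8656 and 3744 CPM in KO at CT22 and CT1 (log2 -2.36). Unc119, a trafficking factor for transducin, averaged 1039, 2079, 2214 and 964 CPM in the same order (log2 -2.20). The glutamate transporter gene Slc17a7 (log2 -2.59) and Rbp3, which encodes the retinoid carrier of the interphotoreceptor matrix (log2 -2.40), passed as well.

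Cone and inner retina genes were far lower in sum. Their part in the rod result was not tested. In the change from CT22 to CT1, 5.92% of all genes tested passed as lower in KO. Of 12 cone genes 2 passed (Gnb3 and Pde6h), and all 12 values were negative (median of the list log2 -1.46). The cone list summed to 179 to 311 CPM in WT CT22, 411 to 608 in WT CT1, 280 to 457 in KO CT22 and 190 to 329 in KO CT1. Its 4 most abundant genes were Thrb, Opn1sw, Gnb3 and Gnat2 (log2 -0.46, -1.86, -1.53 and -1.09), of which Gnb3 passed. Of 19 inner retina genes tested 5 passed (Prkca, Cabp5, Gad1, Calb2 and Aqp4), while Onecut1 was too low to test. Of the 19 values 18 were negative, with a median of log2 -2.14, near that of the 25 further photoreceptor genes. The shift was thus not confined to photoreceptor genes. The inner retina list summed to 2433 to 2665 CPM in WT CT22, 2322 to 2555 in WT CT1, 2181 to 3078 in KO CT22 and 1760 to 2505 in KO CT1. Its 4 most abundant genes were Glul, Slc6a9, Trpm1 and Prkca (log2 -0.13, 0.60, -0.65 and -0.98), of which Prkca passed. Glul and Slc6a9, with means of 1394 and 611.6 CPM, made up most of the sum. The sum therefore does not follow the median gene of the list.

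None of the 16 RPE genes, 14 genes of choroid vessels and stroma, 5 blood genes or 8 immune genes passed in this contrast (edgeR, TMM), while the RPE gene Mitf passed with RLE factors or DESeq2, and Tie1 and Col1a2 of the choroid list with DESeq2. The RPE list had a median of log2 0.28 and summed to 56630 to 61890 CPM in WT CT22, 39580 to 48960 in WT CT1, 41600 to 73690 in KO CT22 and 38610 to 56600 in KO CT1. The RPE sum was thus lower in every WT CT1 library than in every WT CT22 library, opposite to the rod genes, and its part in the result was not tested. The choroid list had a median of log2 0.99, also opposite to the rod genes, and summed to 881 to 1662, 912 to 1315, 648 to 1255 and 1180 to 1647 CPM in these groups. With the choroid list as a covariate the 32 rod values remained negative (median log2 -1.41) and 0 passed, as did 0.00493% of all genes. Blood (median log2 -0.40) and immune genes (0.48) summed to at most 274 and 642 CPM in any library.

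**Figure D5:**
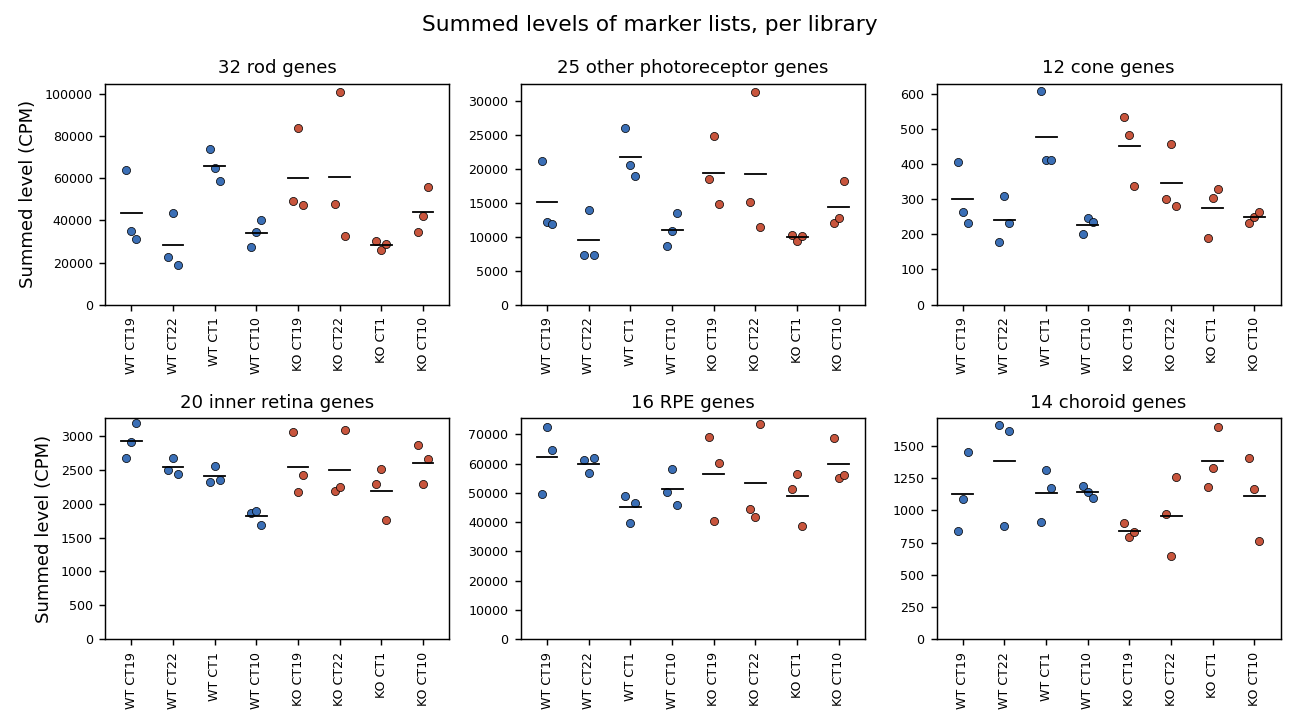
Summed level of each marker list (vertical axes, CPM) per library (points) by genotype and time (horizontal axes), with bars at the group means. For rod and other photoreceptor genes each WT CT1 library lies above each KO CT1 library, and RPE genes have their lowest group mean in WT at CT1.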

How the data were processed

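RNA from laser-captured retinal pigment epithelium was sequenced in 24 libraries (8 groups of 3). The deposited values are raw counts for each gene, whole numbers that the authors had not normalized. The submitters' processing notes name the genome build GRCm38.p6, HTSeq 0.11, Cufflinks, HISAT2 2.1.0 and Trimmomatic 0.32. Annotation release and strand setting are not given in the sources used, so counts of overlapping genes are uncertain. Each library was placed by its labels, and 0 columns lacked a sample. Of 54232 identifiers, 54079 matched a symbol, 153 did not and 98 shared one with a more abundant gene. Total counts ran from 16245067 to 32066263.

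Testing used edgeR 4.0.16 (R 4.3.3): filterByExpr (minimum count 10), TMM factors, and a robust quasi-likelihood fit of 8 group means (16 residual degrees of freedom), with Benjamini-Hochberg adjustment over 20275 genes and a threshold of 0.05. CPM values use the TMM factors. For tests over several times the log2 range is given. Ratios to Gnat1 were tested by exact permutation within times and correlations by permutation, on log2(CPM + 1). DESeq2 1.42.0 and limma 3.58.1 were alternatives. Simulated counts for 19619 genes with known changes gave 44 of 50 calls at a log2 change of 2 in the change from CT22 to CT1. Each gene was drawn independently, so this rate does not cover the swings between libraries that the members share. No pair of libraries in a group was a repeat (chi-square per degree of freedom at least 31.2). Genes per kilobase use GENCODE exon lengths.

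The 32 members and the other 7 lists (other photoreceptor, cone, inner retina, RPE, choroid, blood and immune genes) were chosen with earlier results of these data known. Values in every library are given for 13 members chosen to cover each role, group means for other members past the threshold, up to 4 most abundant genes of other lists, and the 10 genes most like the members' mean. Slc24a1, Gucy2f and the Gnat1 ratios were added after their values were seen.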

Additional observations from a re-analysis of the deposited data

Results flagged for a closer look

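The change over time was compared between the genotypes by a test of the difference itself. Members past the threshold (edgeR quasi-likelihood, Benjamini-Hochberg) numbered 29 of 32 for the change from CT22 to CT1 and 20 of 32 for genotype by time over 4 times, against 7.53% and 4.62% of all genes tested. With 1 library left out these counts were 1 to 30 and 0 to 28. The 29 calls became 0 with the replicate number as a block, with scaling to RPE genes or with the choroid list as a covariate. Among the members followed in every library, the difference in change was log2 -2.39 for Gnat1 and -2.35 for Pde6b in the transduction cascade, and -2.66 for the channel gene Cnga1. It was -2.75 for Sag and -2.28 for Grk1, which end the light response, and -2.76 for Prph2, -1.79 for Rp1 and -2.86 for Fscn2 of discs and cilium. The transcription factor genes gave -2.63 (Nrl), -2.59 (Nr2e3) and -2.41 (Crx), and the matrix gene Impg1 gave -2.57. Groups of 3 libraries are too small for the test for single outlying values, which was therefore not applied.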

How the results depend on the processing

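For the change from CT22 to CT1 between genotypes, all 32 values were negative in every alternative but the rod mean covariate. The members varied together, so their signs are not 32 separate results, and the number of calls was not stable. The 29 calls became 0 with the choroid list as a covariate, with the rod mean as a covariate, with scaling to the RPE list (median log2 -2.84, where that of all genes moved from -0.04 to -0.38), without KO CT22 2 and WT CT1 2 together, and with the replicate block. The rod covariate, the RPE scaling and the joint removal of both libraries were chosen after seeing the data. The 20 genotype by time calls became 12 with RLE factors, 1 with the choroid covariate, and 0 with the block, the rod covariate, RPE scaling, without the 5 pooled libraries or without both libraries. The 4 rises in WT became 11 with DESeq2, 28 with voom, 26 with the choroid covariate, 30 without a filter, 1 with RLE factors or at a mean of at least 5 CPM, and 0 with eyes as a covariate or the other 5 settings just listed. The 3 calls over time in WT became 11 (DESeq2), 30 (voom), 25 (choroid covariate), 29 (no filter), 1 (RLE, eyes, 5 CPM, rod covariate, without both libraries) and 0 (block, RPE scaling, without pooled libraries). The 1 call at CT1 became 14 (DESeq2), 15 (voom), 29 (no filter), 2 (5 CPM) and 0 (block, rod covariate, RPE scaling, without pooled or both libraries). From 0 calls, the filter's absence gave 26 at CT22, 1 at CT19, 4 at CT10, 26 over time in KO, 23 from CT22 to CT1 in KO and 2 in the genotype average. DESeq2 gave 3 at CT22, 1 over time in KO and 1 in the genotype average, voom 2 at CT10, the rod covariate 1 at CT19, 1 at CT10 and 1 in the average, and the choroid covariate or 5 CPM 1 in the average. Leaving out each library in turn gave 1 to 30 calls for the change, 0 to 28 for genotype by time, 0 to 14 for CT22 to CT1 in WT and for time in WT, 0 to 21 at CT1, 0 to 9 at CT22, 0 to 2 in KO from CT22 to CT1 and 0 to 1 in the genotype average, and 30 to 31 for the relations to Gnat1. For named genes, signs reversed only with the rod covariate, and there for several genes. From CT22 to CT1 in WT, Fscn2 was then at log2 -0.13, Gnat1 at -0.20 and Crx at -0.21. Others kept their sign in that contrast, such as Cnga1 (0.23) and Prph2 (0.39). Deviations of same-numbered libraries from their group means had r of -0.213 to 0.422 (30 pairs, median 0.011, 7 over 0.1). Differently numbered libraries were not compared, so these values cannot exclude pairing. The numbers were not taken as pairs in the main fit. With the replicate block (7 residual degrees of freedom) 0 members passed in any contrast, and the median change was log2 -2.03. With 3 libraries a group and genes drawn independently, 3 of 50 simulated log2 changes of 1 were called in the change from CT22 to CT1. Counts of members in this section stand without the share of all genes called in the same fit. They therefore do not set the members apart from other genes. The cause of each difference between settings was not tested.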
